A study of Mus musculus with 6 samples.

Results

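The RNA of 10 lipid handling genes was compared between RAW 264.7 cells, a virus-transformed mouse macrophage line, given the bisphenol BPAP (bisphenol AP) and cells given DMSO, the usual solvent. All cells were grown in DMEM with fetal bovine serum. The genes were chosen by name, with earlier results of these data known, so the share of them called is descriptive. Lpl, Cd36, Fabp4 and Fabp5 stood for lipid uptake and binding, and Plin2 and Hilpda for lipid droplets. Abca1 and Abcg1 stood for sterol efflux, and Nr1h3 and Nr1h2 for the sterol-sensing receptors LXRα and LXRβ. All 10 were found once among the 34745 genes of the deposited count table, and 9 of them were among the 11711 genes with enough counts to be tested. Each treatment had 3 RNA sequencing libraries, with 11084705 to 13806559 counts per library. The dose of BPAP is not given in the sources used here, nor is the exposure time. Separate cultures are not named in the labels, so p-values measure a spread between libraries that may be technical.

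Macrophages take up lipoprotein lipid through secreted lipases and scavenger receptors, store the surplus as droplets of neutral lipid, and return cholesterol to the blood through membrane pumps. LXRα and LXRβ are nuclear receptors that bind oxidised sterols and raise transcription of the pumps when sterol builds up. A macrophage in which storage outruns export becomes a foam cell.

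Values are in CPM, counts scaled to library size, with TMM factors that adjust for composition. A gene was called when edgeR's quasi-likelihood test gave a Benjamini-Hochberg adjusted p under 0.05 over all tested genes. In BPAP-treated cells, Plin2, Hilpda, Fabp5 and Nr1h2 rose and Lpl and Abca1 fell, while Abcg1, Cd36 and Nr1h3 did not pass and Fabp4 was too low to test. Over all tested genes 31.7% were called, 16.2% higher and 15.5% lower. The 6 called members were also those with no overlap between treatments, which held for 49.0% of all tested genes. In bulk RNA, fewer cells of one kind and less RNA per cell cannot be told apart.

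**Figure D1:**
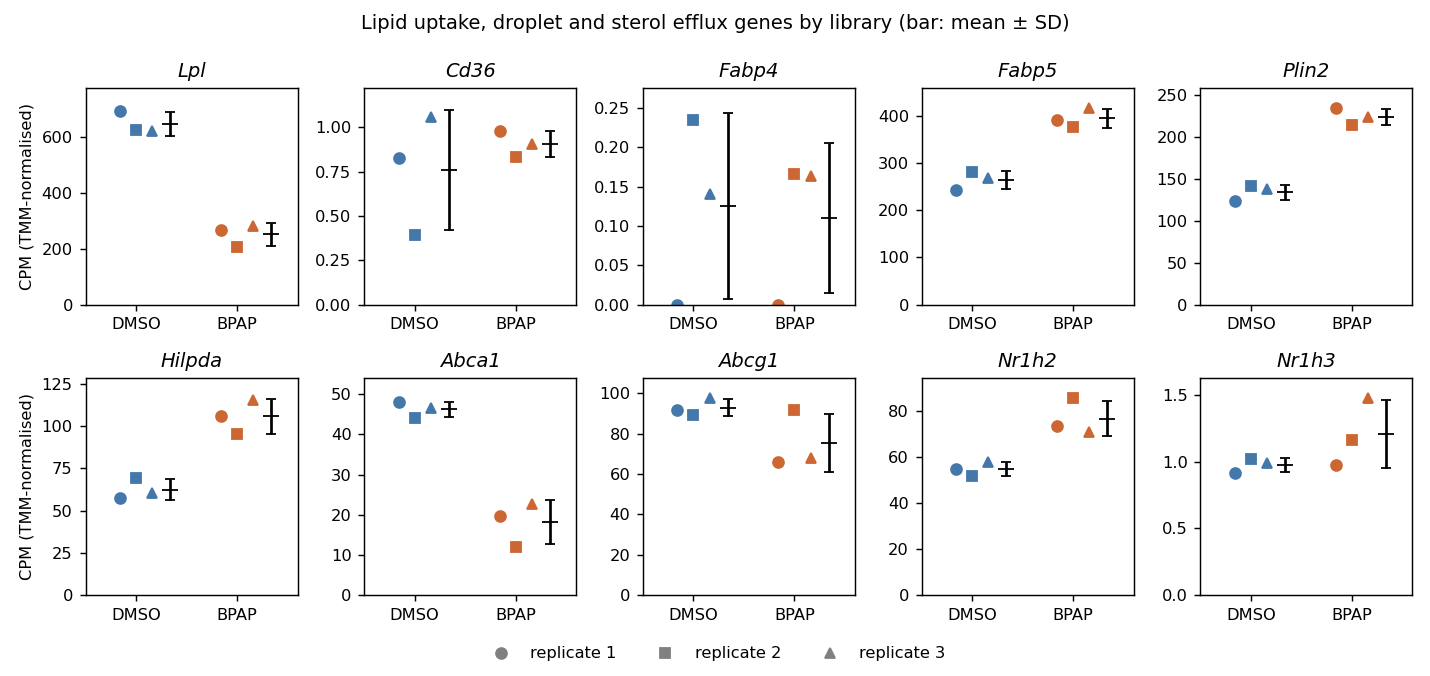
CPM of each gene in each of the 6 libraries (points, shape by replicate number) with the group mean and SD (bar, n = 3), each panel on its own linear axis from 0. Lpl and Abca1 were lower and Fabp5, Plin2, Hilpda and Nr1h2 higher in every BPAP library than in every DMSO library, whereas Abcg1 overlapped because BPAP replicate 2 stood at 91.8 CPM.

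The line carried macrophage markers in both treatments. Of 10 marker genes, 9 exceeded 10 CPM in every library, and Mertk had 0 counts in all. Their levels were not the same in both treatments. Of the 11 table entries for these genes, Itgam having 2, 5 were higher in every BPAP library than in every DMSO library and 3 were lower. Over all tested genes, 49.0% likewise had no overlap between treatments. Cd14 lay at 87.8 to 98.6 CPM in DMSO and 164 to 333 CPM in BPAP, Fcgr1 at 17.8 to 19.1 and 39.7 to 51.1 CPM, and Ptprc at 678 to 761 and 409 to 510 CPM. Their summed level was 4664 to 5270 CPM in DMSO and 5198 to 5594 CPM in BPAP, and the part of these shifts in the results on lipid genes was not tested. Marker lists of adipocytes, fibroblasts, lymphocytes and epithelium reached at most 4, 12, 2 and 1 counts for any gene in any library. The summed adipocyte markers lay between 0.282 and 0.459 CPM in DMSO and between 0.166 and 0.410 CPM in BPAP, with Lep and Cfd at 0 throughout.

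The letters before the gene starts are shown for the efflux gene that fell and the droplet genes that rose. Each run is the 250 bases upstream of the annotated start on the gene's own strand, from RefSeq on GRCm38.p6. Capitals mark matches, on either strand, to the E-box CACGTG or the shorter hypoxia-response core ACGTG it contains. They also mark the receptor half-site AGGTCA and a relaxed pair of half-sites, GGTNA and GGTCA with 5 free bases between them. Each half-site of the pair lacks its first base. Whole half-sites would thus be 4 bases apart, the spacing that LXR with its partner RXR prefers. The Abca1 run is chr4:53159896-53160145, the Plin2 run chr4:86670060-86670309 and the Hilpda run chr6:29272238-29272487.
Abca1: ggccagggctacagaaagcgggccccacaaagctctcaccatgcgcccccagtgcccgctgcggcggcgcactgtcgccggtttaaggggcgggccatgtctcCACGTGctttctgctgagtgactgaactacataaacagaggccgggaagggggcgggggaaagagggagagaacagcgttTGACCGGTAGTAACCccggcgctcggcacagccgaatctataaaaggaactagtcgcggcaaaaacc
Plin2: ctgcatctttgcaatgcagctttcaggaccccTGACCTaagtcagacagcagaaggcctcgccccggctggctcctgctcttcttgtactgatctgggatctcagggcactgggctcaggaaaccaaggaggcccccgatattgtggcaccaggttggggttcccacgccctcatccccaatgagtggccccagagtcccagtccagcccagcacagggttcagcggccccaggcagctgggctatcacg
Hilpda: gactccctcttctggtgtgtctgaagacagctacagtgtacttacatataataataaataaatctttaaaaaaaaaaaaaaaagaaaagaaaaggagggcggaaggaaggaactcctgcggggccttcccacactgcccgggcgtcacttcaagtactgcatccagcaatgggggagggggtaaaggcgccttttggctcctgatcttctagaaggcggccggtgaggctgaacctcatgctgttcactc
The relaxed pair, chosen with the known LXR element of the Abca1 promoter in mind, matched the Abca1 window once, beginning 67 bases before the start. It occurs in 0.177% of 32851 promoter windows of this length. Because the pair was chosen with that element in mind, this rate does not measure how unusual the Abca1 match is. Abca1 also held 1 E-box, found in 6.02% of windows, which contains the ACGTG core on both strands (16.6% of windows). Plin2 held 1 AGGTCA half-site, found in 14.0% of windows, and Hilpda held none of these letters. Promoter entries were matched for 6 of the 10 genes. Of those not shown, Cd36, which was not called, also held 1 AGGTCA half-site. Nr1h2, which rose, and Nr1h3, which was not called, held no match. A match describes letters only and was not tested for binding.

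Lpl encodes lipoprotein lipase, which releases fatty acids from circulating triglyceride. The gene (ENSMUSG00000015568, GRCm38 chromosome 8, 68880491 to 68907448, plus strand) was measured at 696, 627 and 621 CPM in DMSO replicates 1 to 3 and at 267, 207 and 283 CPM in the BPAP replicates. All BPAP libraries were therefore below all DMSO libraries, with BPAP replicate 2 the lowest. The mean fell from 648 ± 41.6 to 252 ± 40.1 CPM (SD, n = 3 per group), 2.57-fold lower (adjusted p = 0.000257, log2 fold change -1.36 with an SE of 0.12). Only 2.14% of the tested genes had a higher mean CPM than Lpl, a rank that is not adjusted for exon length. A larger absolute log2 fold change was found in 0.931% of tested genes.

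Cd36, the fatty acid and oxidised lipoprotein receptor (ENSMUSG00000002944, chromosome 5, 17781690 to 17888801, minus strand), was near the detection limit. It had 9, 5 and 15 counts in DMSO and 12, 10 and 11 in BPAP, or 0.758 ± 0.338 and 0.904 ± 0.0722 CPM (SD, n = 3). The groups overlapped, and the 95% interval of the log2 fold change ran from -0.66 to 1.14 (adjusted p = 0.680). Changes within that range, in either direction, could not be told from none at this depth. Without DMSO replicate 2 the log2 fold change was -0.073.

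The fatty acid binding proteins carry fatty acids through the cytosol, and Fabp5 (ENSMUSG00000027533, chromosome 3, 10012548 to 10016607, plus strand) and Fabp4 (ENSMUSG00000062515, chromosome 3, 10204088 to 10208576, minus strand) lie on the same chromosome. Fabp5 stood at 242, 280 and 269 CPM in DMSO and at 392, 376 and 417 CPM in BPAP. It was higher in every BPAP library, and the mean rose from 264 ± 19.5 to 395 ± 20.4 CPM (SD, n = 3; adjusted p = 0.00164, log2 fold change 0.58 with an SE of 0.09). Fabp4, the form typical of adipocytes and of lipid-laden macrophages, had 0, 3 and 2 counts in DMSO and 0, 2 and 2 in BPAP. No library exceeded 3 counts, which correspond to 0.211 to 0.275 CPM, so no fold is given. The related gene Fabp5l2 is a separate entry of the table. How reads matching several genes were counted is not given in the sources used here, so Fabp5 counts are uncertain to the extent that its copies share reads.

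Both droplet genes rose. Plin2 encodes the protein that coats lipid droplets in most cells (ENSMUSG00000028494, chromosome 4, 86648386 to 86670060, minus strand). Its values were 124, 141 and 138 CPM in DMSO and 234, 215 and 224 CPM in BPAP. The groups were well apart, and each varied little within itself, at 134 ± 9.22 against 224 ± 9.68 CPM (SD, n = 3). Plin2 rose 1.67-fold (adjusted p = 0.000602, log2 fold change 0.74 with an SE of 0.09).

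Hilpda encodes a small droplet protein that inhibits adipose triglyceride lipase and is induced by hypoxia (ENSMUSG00000043421, chromosome 6, 29272488 to 29275446, plus strand). It was measured at 57.6, 69.2 and 60.2 CPM in DMSO and at 106, 95.3 and 116 CPM in BPAP. Every BPAP library lay above every DMSO library, and Hilpda rose 1.70-fold (adjusted p = 0.00121, log2 fold change 0.76 with an SE of 0.11). Within each library the ratio of Plin2 to Hilpda counts was 2.15, 2.04 and 2.29 in DMSO and 2.20, 2.26 and 1.94 in BPAP. Those ranges overlapped, with a difference of -0.019 on the log2 scale (BPAP minus DMSO, group SDs 0.08 and 0.12, 2-sided exact permutation p = 0.8). With the length and GC trend removed the difference was 0.21, larger than either SD, so equal rises are not shown. Of the 4 member pairs whose ratios were tested, the adjusted p for this pair was 0.8, and 3 against 3 libraries cannot go below an unadjusted p of 0.1.

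Abca1 pumps cholesterol and phospholipid onto lipid-poor apolipoprotein A-I (ENSMUSG00000015243, chromosome 4, 53030787 to 53159895, minus strand). It stood at 48.0, 44.2 and 46.6 CPM in DMSO and at 19.7, 12.1 and 22.7 CPM in BPAP. All BPAP values lay below all DMSO values, but they were more scattered, with a coefficient of variation of 30.2% against 4.16%. The level was 2.55-fold lower (adjusted p = 0.00172, log2 fold change -1.35 with an SE of 0.19). Only 0.973% of tested genes had a larger absolute log2 fold change.

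Abcg1 moves cholesterol to mature HDL particles and is also a classical LXR target (ENSMUSG00000024030, chromosome 17, 31057698 to 31115777, plus strand). It was measured at 91.5, 89.3 and 97.6 CPM in DMSO and at 65.9, 91.8 and 68.1 CPM in BPAP. BPAP replicates 1 and 3 were below all DMSO libraries and BPAP replicate 2 was within their range. The log2 fold change was -0.30 (SE 0.13, 95% interval -0.58 to -0.02, adjusted p = 0.0921). Without BPAP replicate 2 it was -0.47 and passed (adjusted p = 0.00377). Across the other fits without 1 library or with another tool or scaling it did not pass.

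The efflux genes were compared directly through their ratio in each library. Abca1 had 0.525, 0.495 and 0.478 counts per Abcg1 count in DMSO and 0.299, 0.131 and 0.334 in BPAP. The groups did not overlap, and BPAP replicate 2 was the lowest because it combined the lowest Abca1 with the highest Abcg1 of the BPAP libraries. The log2 ratio differed by -1.08 (group SDs 0.07 in DMSO and 0.73 in BPAP, 2-sided exact permutation p = 0.1, adjusted p = 0.2 over 4 pairs). Without BPAP replicate 2 the difference was -0.66. For Lpl against Cd36 the same comparison gave -1.74 (exact permutation p = 0.1, adjusted p = 0.2), with Cd36 too low for a precise ratio.

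Nr1h2 encodes LXRβ, which is present in most tissues, and Nr1h3 encodes LXRα, which is prominent in liver, fat and differentiated macrophages. Nr1h2 (ENSMUSG00000060601, chromosome 7, 44549616 to 44553951, minus strand) was measured at 54.7, 51.7 and 57.9 CPM in DMSO and at 73.7, 85.7 and 71.1 CPM in BPAP. It was higher in every BPAP library and rose 1.40-fold (adjusted p = 0.00633, log2 fold change 0.49 with an SE of 0.10). Nr1h3 (ENSMUSG00000002108, chromosome 2, 91184061 to 91202834, minus strand) had 10 to 14 counts per library in DMSO and 12, 14 and 18 in BPAP, and its groups overlapped (log2 fold change 0.30, 95% interval -0.39 to 1.00, adjusted p = 0.488). Its exons share 34 bases with Gm13783 on the same strand. Their ratio, Nr1h3 to Nr1h2, was 0.0132 to 0.0208 in BPAP and 0.0168 to 0.0197 in DMSO (exact permutation p = 0.4, adjusted p = 0.533).

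Levels can be compared between genes only per length, here as CPM per kilobase of merged exons. In DMSO the order was Fabp5 at 74.0 ± 5.46, Lpl at 61.8 ± 3.97, Hilpda at 56.5 ± 5.53, Plin2 at 38.2 ± 2.62, Nr1h2 at 16.3 ± 0.922, Abcg1 at 12.7 ± 0.593 and Abca1 at 4.47 ± 0.186 CPM per kilobase (SD, n = 3). Nr1h3, Cd36 and Fabp4 followed, each below 1 CPM per kilobase, so that LXRβ transcripts far exceeded LXRα transcripts. Only Lpl and Hilpda, as neighbours in that order, overlapped between libraries. In BPAP, Lpl stood at 24.1 ± 3.83 CPM per kilobase, below Fabp5, Hilpda and Plin2, and overlapped with Nr1h2 at 22.9 ± 2.32. Abca1 was then at 1.75 ± 0.530 CPM per kilobase.

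The members that fell are long and those that rose are short. Merged exons hold 10478 bases for Lpl and 10363 for Abca1, against 1103 for Hilpda, 3354 for Nr1h2, 3512 for Plin2 and 3567 for Fabp5, with a median of 4298 over all tested genes. Log2 fold changes over the whole table fell with exon length, with a Spearman correlation of -0.40 across genes, which are not independent replicates. Tested genes within 10% of the length of Abca1 had a median log2 fold change of -0.19, those around Plin2 0.11 and those around Hilpda 0.35. Of these neighbours, 32.2% around Lpl and 31.8% around Abca1 were called lower, against 15.5% of all tested genes. Around Hilpda 37.9% were called higher, and around Plin2, Fabp5 and Nr1h2 18.1%, 18.1% and 17.4%, against 16.2% of all tested genes. After the trends of each library with exon length and GC were taken out, the called members stayed called in the same directions, with 23.1% of all genes called in that fit, 11.9% higher and 11.2% lower. The log2 fold change became -1.10 for Lpl (adjusted p = 0.000309), -1.15 for Abca1 (0.00374), 0.60 for Plin2 (0.00176), 0.46 for Fabp5 (0.00452) and 0.36 for Nr1h2 (0.0197). Hilpda moved most, from 0.76 to 0.39 (adjusted p = 0.0275). What produced the length trend was not tested.

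**Figure D2:**
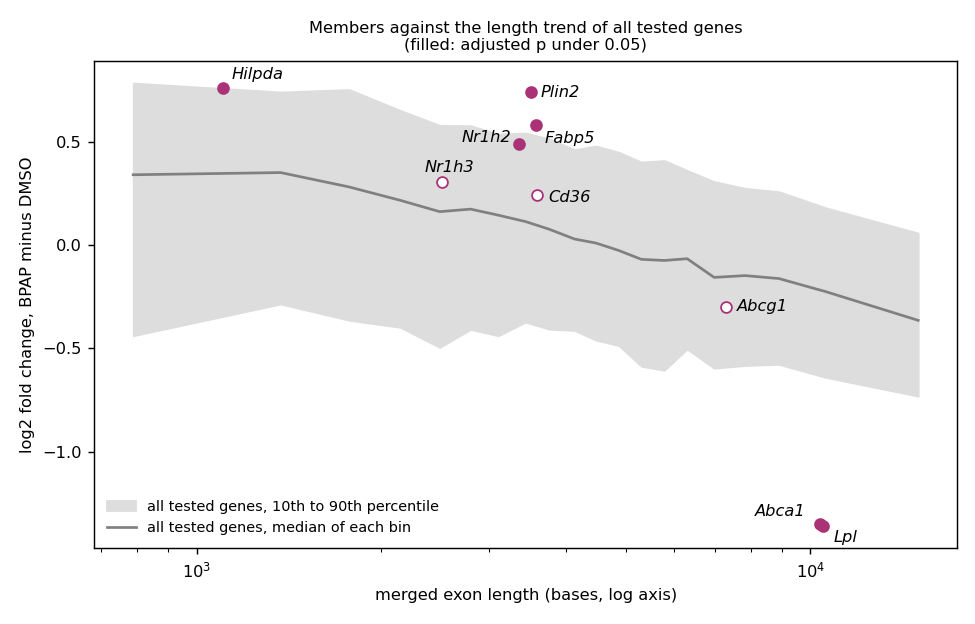
Log2 fold change (BPAP minus DMSO) of the 9 tested members against merged exon length on a log axis, over the median and the 10th to 90th percentile of all tested genes in 20 bins of equal size. Lpl and Abca1 at -1.36 and -1.35 lie far under the band of genes of their length, and Plin2 at 0.74 lies above it. Fabp5 at 0.58 lies slightly above the band, Hilpda at 0.76 at its upper edge and Nr1h2 at 0.49 within it.

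**Figure D3:**
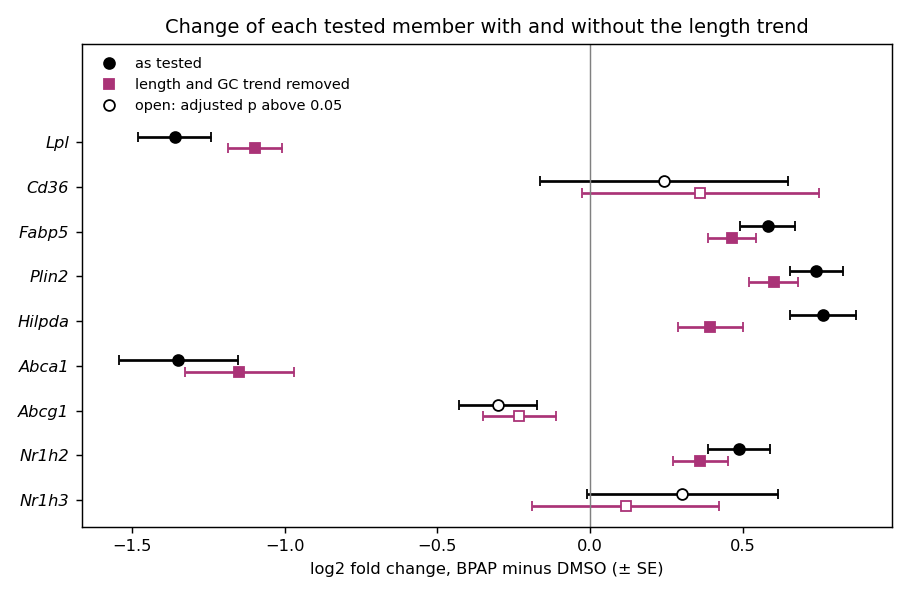
Log2 fold change with its SE for each tested member, as tested (circles) and with the length and GC trend of each library removed (squares), open symbols marking an adjusted p above 0.05. All called members kept their side of 0 and their call, and Hilpda moved the furthest, to 0.39.

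Of 88 further lipid genes in 5 lists, 61 were tested, with 11 called higher and 8 lower. That is 31.1% called, close to the 31.7% of all tested genes. The lists were chosen with earlier results of these data known, so called shares and medians, here and below, only describe them. Among genes of droplet build-up and breakdown, 8 of 19 tested were higher and 2 lower, or 52.6% called. Their median log2 fold change was 0.25, against 0.02 for all tested genes. The named genes that rose were Abhd5, a co-activator of adipose triglyceride lipase (1.45-fold, adjusted p = 0.0124), Nceh1, which hydrolyses cholesteryl esters (1.42-fold, 0.00248), Fitm2, which helps package triglyceride into droplets (1.41-fold, 0.0212), the droplet coat gene Plin3 (1.40-fold, 0.00538) and Gpat3, an acyltransferase of triglyceride synthesis (1.34-fold, 0.0230). The rises therefore included genes of both storage and breakdown. Lpin1, a phosphatidate phosphatase, was 1.52-fold lower (adjusted p = 0.00211). The number higher was 3 without DMSO replicate 1, 3 without DMSO replicate 2 and 4 without DMSO replicate 3, where 10.5%, 10.8% and 11.3% of all tested genes were higher. Gpat3 lost its call in each of these and without BPAP replicate 3 (adjusted p = 0.0595 to 0.0800), and Abhd5 without DMSO replicate 1 (0.0515). It was 6 with the length and GC trend removed, with 1 lower, and Gpat3 then did not pass (adjusted p = 0.0707). Fitm2 lost its call without any 1 of the DMSO libraries (adjusted p = 0.0506 to 0.0768).

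Among 14 tested genes of lipid uptake, 1 was called higher and 1 lower. That is 14.3% called, against 31.7% of all tested genes, and the median log2 fold change was 0.01. Lrp1, the large endocytic receptor for remnant lipoproteins, was measured at 1236, 1283 and 1111 CPM in DMSO and at 490, 499 and 507 CPM in BPAP. It was 2.43-fold lower (adjusted p = 0.000106) and stayed lower with the length and GC trend removed (log2 fold change -0.90). Npc2, which takes part in the export of cholesterol from the lysosome, rose 1.37-fold (adjusted p = 0.00553). Of 6 tested genes of fatty acid binding and activation, 33.3% were called. Dbi, an acyl-CoA binding protein, rose 1.35-fold (adjusted p = 0.0116). Acsl4, an acyl-CoA synthetase that prefers arachidonate, fell by 0.26 on the log2 scale (adjusted p = 0.0430). Neither passed with the length and GC trend removed (0.450 and 0.795), and Acsl4 lost its call without any 1 library.

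Besides Abca1 and Abcg1, 12 LXR target and efflux genes were tested. Of these 1 was called higher and 1 lower. That is 16.7% called, against 31.7% of all tested genes, and the median log2 fold change was -0.07. Mylip, an LXR-induced ubiquitin ligase that degrades the LDL receptor, was measured at 12.7, 11.6 and 11.7 CPM in DMSO and at 7.41, 8.32 and 7.14 CPM in BPAP, and was 1.57-fold lower (adjusted p = 0.00735). Smpdl3a, a phosphodiesterase gene known as an LXR target in human macrophages, rose 1.72-fold, from 14.2 ± 0.480 to 24.4 ± 0.346 CPM (SD, n = 3, adjusted p = 0.00108). Without BPAP replicate 2, 3 genes of the list were lower, Mylip, Scd2 and Apoe, in a fit that called 28.0% of all tested genes, 14.0% lower.

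Of 10 tested LXR partners and other regulators, 0 were called higher and 3 lower by edgeR. That is 30% called, close to the 31.7% of all tested genes, and the median log2 fold change was -0.18. Ncor1, a corepressor of unliganded nuclear receptors, was 1.43-fold lower (adjusted p = 0.00430), and the coactivator genes Ncoa2 and Ncoa1 were 1.35-fold and 1.33-fold lower (0.0154 and 0.0196). Ncoa1 lost its call without DMSO replicate 1 (adjusted p = 0.0517) and without BPAP replicate 1 (0.0609). Their exons hold 12811, 15642 and 8576 bases, and with the length and GC trend removed Ncor1 alone passed (log2 fold change -0.26, adjusted p = 0.0489). The LXR partner genes Rxra and Rxrb had log2 fold changes of 0.38 and 0.33 and did not pass. Exons of Ncor1, Ncoa1, Abhd5, Fitm2 and Gpat3 share bases with a gene on the opposite strand, and strand use in the counting is not given in the sources used here. The opposite genes of Abhd5, Fitm2 and Gpat3 held only 2, 0 and 4 counts over all libraries. Of the LXR targets that did not pass, Pltp shares 495 bases with Ctsa (154350 counts against 9570 for Pltp). Lpcat3 shares 334 bases with Emg1 (5776 against 1724 for Lpcat3). What these overlaps add to the counts was not tested.

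**Figure D4:**
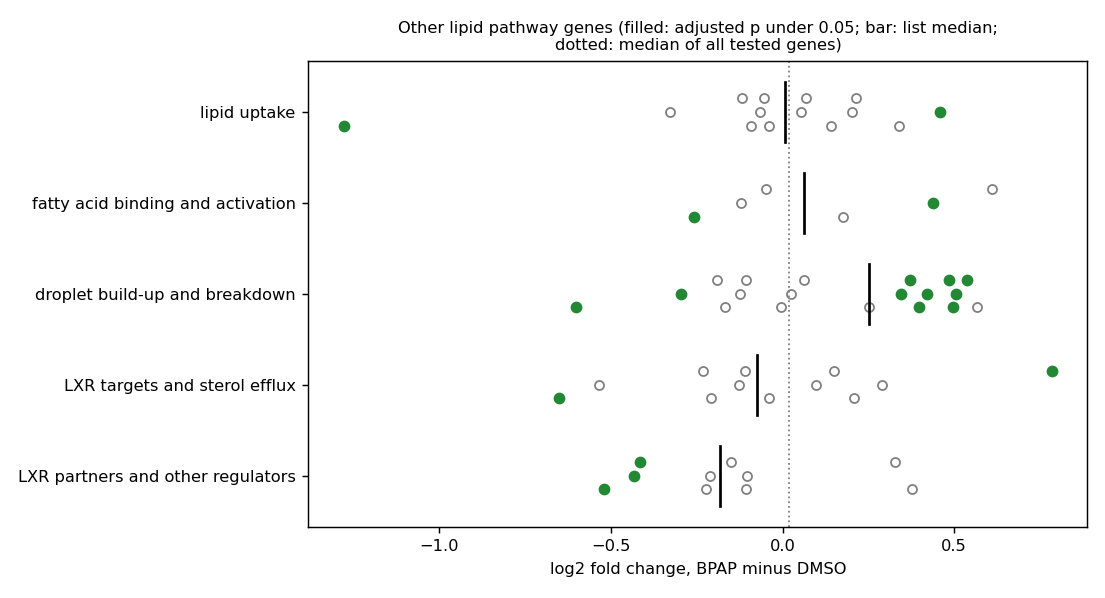
Log2 fold change (BPAP minus DMSO) of each tested gene of the 5 further lists, filled where the adjusted p was under 0.05, with the median of each list (bar) and of all tested genes (dotted line). The droplet list has 8 filled points to the right and 2 to the left, and the far left point of the uptake list is Lrp1.

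Genes whose log2 CPM followed the called members most closely over the 6 libraries were found among 8521 genes with a mean of at least 10 CPM. For Lpl they were Cep192, Numa1 and Rb1cc1 (Pearson r 0.999 for each), and for Abca1 they were Bub1, Kif20b and Ckap5 (0.999 for each). For Plin2 they were Ctsl, Metrnl and Fcgr4 (0.999, 0.998 and 0.997), for Hilpda Alg2, Fzd5 and Ngdn (0.995, 0.994 and 0.994), for Fabp5 Mrpl33 and Mrps33 (0.997 and 0.995), and for Nr1h2 Pcnxl4, Mrpl10 and Yipf3 (0.995, 0.995 and 0.993). Such values are mostly set by the difference between the treatments, and 276 genes exceeded 0.98 with Abca1 alone.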

How the data were processed

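Per the labels' protocols, RNA was extracted from RAW 264.7 cells with TRIzol and sequenced from VAHTS Universal V6 libraries. Per the submitters' processing notes, HISAT2 2.0.4, StringTie 1.3.3b and edgeR were used with GRCm38, with no role given. The authors deposited raw counts and FPKM per gene and library. The annotation release is not given in the sources used here.

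Tests ran on the deposited counts for all 6 libraries: default expression filter, TMM scaling, edgeR 4.0.16 quasi-likelihood test (R 4.3.3, robust, treatment as the only term), 2-sided p adjusted over 11711 genes. Each SE is the log2 fold change over the root of its F. The limit of 3 counts covers counting error only. Exon length and GC content (longest transcript) came from GENCODE M21 for 11665 tested genes, and their lowess trends (span 0.3) were removed as an offset. Alternatives were DESeq2 1.42.0 and its size factors, upper quartile scaling, no filter, limma 3.58.1 (voom, and trend on log2 of the deposited FPKM plus 1 or 0.1, genes with a mean of at least 1), a replicate block, and each library left out. The edgeR fit, with and without the trend offset, was run on counts simulated with the same dispersion for all genes and no length or GC trend. That run does not test the removal of a real trend.

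Members and lists were chosen with earlier results of these data known. Named by rule were all members, up to 6 called genes per list with the largest change, and the 3 genes most like each called member, apart from a result that is not reported here. Scd2, Apoe, Rxra, Rxrb, Pltp and Lpcat3 were named after their values were seen. The planned ratio of Fabp4 to Fabp5 was not computed because Fabp4 had 0 counts in a pair of libraries. Gpat3 is listed under an older symbol, Agpat9.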

Additional observations from a re-analysis of the deposited data

How the results depend on the processing

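The calls of Lpl, Abca1, Plin2, Hilpda, Fabp5 and Nr1h2 held under each of the 16 alternatives run, with log2 fold changes of -1.45 to -1.10, -1.54 to -1.02, 0.60 to 0.78, 0.39 to 0.84, 0.46 to 0.63 and 0.36 to 0.54. In those fits 21.2% to 36.2% of tested genes were called. Cd36 ranged from -0.073 (without DMSO replicate 2) to 0.59 with 1 library left out, and was not called in any fit that included it. Counts of about 10 per library limit Cd36 and Nr1h3.

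Leaving out 1 library gave 1244 to 1654 genes higher (10.5% to 14.0% of those tested), against 1901 (16.2%), the lowest without DMSO replicate 1. That library had 10.8% of its counts on mitochondrially encoded genes, against 6.53% to 7.55% in the other libraries. Between 10.4% and 14.0% of tested genes were lower in the fits with 1 library left out. In the droplet list 3 to 7 genes were then higher and 1 to 2 lower, in the LXR target list 1 to 2 higher and 1 to 3 lower, and in the fatty acid list 0 lower. The log2 ratio of Plin2 to Hilpda differed by -0.062 to 0.049 in these fits and by 0.21 with the length and GC trend removed. That removal gave 2 uptake genes higher, 0 fatty acid genes higher and 0 lower, 1 droplet gene lower and 1 LXR partner lower. In that fit 11.9% of tested genes were higher and 11.2% lower. Upper quartile scaling gave 2 uptake genes higher and 0 fatty acid genes lower, with 17.8% of tested genes higher and 14.5% lower. No filter gave 0 fatty acid genes lower, with 11.3% of tested genes lower. Either FPKM pseudocount, 1 or 0.1, gave 2 fatty acid genes higher, with 15.8% and 15.6% of tested genes higher. The cause of these shifts was not tested.

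The labels do not say whether replicate numbers pair the libraries. Deviations of same-numbered libraries from their group means correlated weakly, at 0.10, 0.05 and 0.01. Still, 5 of 6 libraries correlated best with their own number, so a weak pairing is possible and was not tested. With a replicate block 2149 genes were higher and 2087 lower, or 18.4% and 17.8% of those tested. No member changed its call, and 2 LXR partners, Rxra and Rxrb, were higher. Block and trend removal together gave 3 uptake genes higher and 0 fatty acid genes higher and 0 lower. They also gave 2 LXR targets higher and 2 lower, and 1 LXR partner, Rxra, higher and 1 lower. In that fit 13.1% of tested genes were higher and 12.5% lower.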
